A study of Mus musculus with 11 samples.

Results

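The genes described here are those the study set out to delete and the genes of the complexes they build: Mtor, Rptor (the Raptor gene), Rictor, Mlst8, Deptor, Akt1s1, Mapkap1 and Prr5, with the kinase genes Rps6kb1 and Rps6kb2 that lie directly downstream. They were chosen by name, and all 10 were found among the 55487 genes of the deposited tables. A filter on low counts left 9 of them among 10505 genes tested, and Prr5 did not pass it. Their RNA was measured in the gastrocnemius, a calf muscle, in 11 libraries by QuantSeq 3' mRNA FWD, a method whose reads start near the polyadenylated end of a transcript. The 4 double-knockout libraries came from mice that carried floxed Raptor and floxed mTOR alleles, with a tamoxifen-dependent Cre recombinase (joined to a mutated oestrogen receptor domain) under the human skeletal actin (HSA) promoter, which drives it in myofibres. The 3 Raptor-knockout libraries came from mice that carried the same Cre and floxed Raptor alleles. The 4 remaining libraries were labelled wild type. Per the labels, all 3 groups were given tamoxifen, the ligand that activates this Cre, in chow for 7 weeks from 3 months of age, and muscles were taken 7 months after it was begun. Other cells of the muscle keep their intact alleles in such a model, and no source used here gave the loxP positions.

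mTOR is a protein kinase that works in a pair of complexes. In mTOR complex 1, Raptor presents substrates such as the S6 kinases and the 4E-BP proteins, through which amino acids and insulin raise protein synthesis and hold back autophagy. In mTOR complex 2, Rictor and mSIN1 (the Mapkap1 product) direct the kinase to AKT, SGK1 and protein kinase C, and loss of Raptor from muscle fibres is known to cause a myopathy.

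Each library held 2791339 to 3536731 counts in the double knockout, 3223797 to 3764879 in the Raptor knockout and 3134575 to 6328533 in wild type. The labelled tissue was checked against its markers, and 8 myofibre genes such as Acta1 and Ckm summed to 85718 to 106900 CPM (counts relative to a TMM-scaled library size) in the double knockout, 85332 to 95722 in the Raptor knockout and 89314 to 111050 in wild type. Markers of some other cells moved with genotype. Endothelial marker sums overlapped between all groups (164 to 198, 171 to 208 and 168 to 248 CPM in the same group order). Mural and adipocyte marker sums also overlapped between all groups. Schwann marker sums of the double knockout (130.48 to 320.53 CPM) and wild type (106.31 to 130.52 CPM) barely overlapped. Of 5 tested Schwann genes only Pmp22 passed, as higher in the double knockout (log2 fold change 0.93), and none passed in the Raptor knockout. Fibroblast and fibro-adipogenic markers summed to 1813 to 2009 CPM in the double knockout, 1591 to 1703 in the Raptor knockout and 912 to 1504 in wild type, and macrophage markers to 128 to 167, 91.8 to 190 and 64.7 to 119 CPM in the same order. Satellite cell markers summed to 147 to 173 CPM in the double knockout, 119 to 154 in the Raptor knockout and 75.2 to 104 in wild type. Of these 8 satellite cell genes 5 were tested, and their changes were uneven. Itga7 (log2 fold change 1.53) and Cd34 (0.60) passed as higher in the double knockout, and 1 gene passed in the Raptor knockout. In the double knockout Sdc4 (0.58), Vcam1 (0.01) and Chodl (-0.18) did not pass. The part of these cells in the results was not tested. In whole muscle fewer cells of a type and less RNA per cell cannot be told apart. The mitochondrial ribosomal RNA mt-Rnr2 varied within every group, and Xist was at 95.6 CPM or more in double-knockout replicates 1 to 3 and wild-type replicate 3, against 0.29 CPM or less in the other 7 libraries. No Raptor-knockout library had Xist, and fewer wild-type than double-knockout libraries had it. When the double knockout is compared with either group, a difference that goes with Xist and one that goes with genotype cannot be fully told apart.

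In the double knockout, 5 of the 9 tested genes differed from wild type by edgeR's quasi-likelihood test at an adjusted p under 0.05: Mtor was higher, and Rptor, Rictor, Mapkap1 and Rps6kb1 were lower. Of all tested genes, 26.7% passed in that comparison (13% higher and 13.7% lower). In the Raptor knockout, Rptor, Rictor, Mapkap1 and Rps6kb1 were lower than in wild type and none was higher, so 4 of 9 passed, against 18.2% of all genes (8.73% higher and 9.43% lower). Between the double knockout and the Raptor knockout none of the 9 passed, against 0.0286% of all genes (0.00952% higher and 0.019% lower, 3 genes in all), although 997 genes had an unadjusted p under 0.05. With library totals as the scale, the split over all genes moved to 2421 higher and 844 lower in the double knockout, and to 1638 and 573 in the Raptor knockout, with the median gene at 0.25 and 0.20 on the log2 scale. The wild-type libraries are shared by both comparisons with wild type. Every one of these 9 calls had groups that did not overlap. A small adjusted p favours such separation, so this describes the calls and adds no support. Over all genes the share was 26.8% in the double knockout against wild type and 27.3% in the Raptor knockout against wild type.

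**Figure D1:**
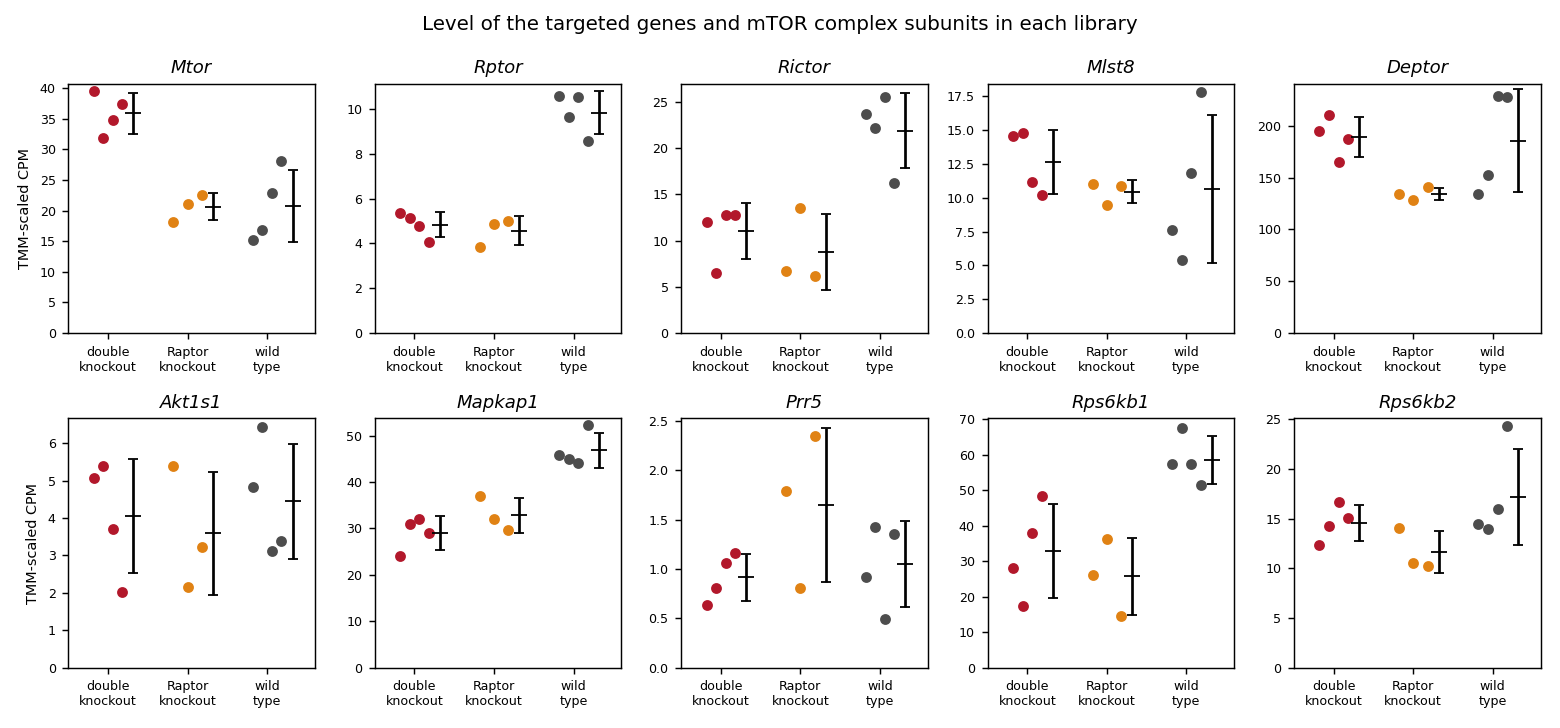
TMM-scaled CPM of the 10 genes in each library (y axis, linear from 0, its own range in each panel) for the double knockout (n = 4), the Raptor knockout (n = 3) and wild type (n = 4), with the mean and SD beside the points. Rptor, Rictor, Mapkap1 and Rps6kb1 lie below wild type in all 7 knockout libraries, and Mtor lies above the other 7 libraries in the 4 double-knockout libraries.

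**Figure D2:**
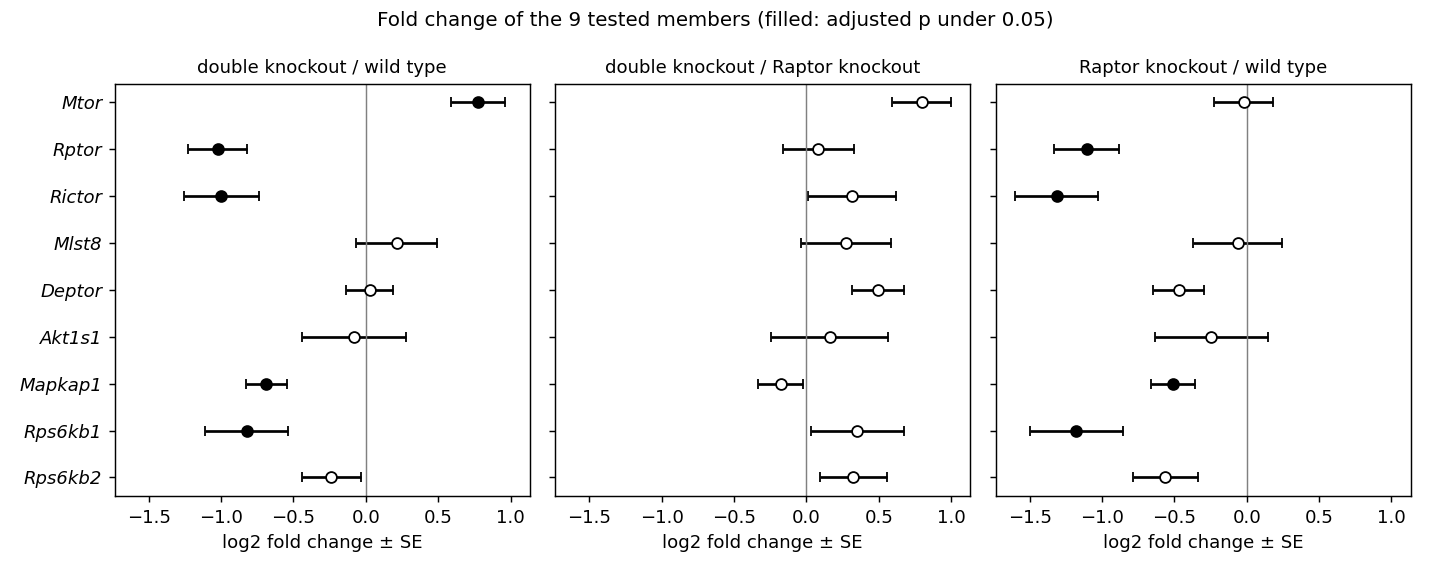
Log2 fold change with its SE (x axis) of the 9 tested genes from edgeR's quasi-likelihood fit, for the double knockout over wild type, the double knockout over the Raptor knockout, and the Raptor knockout over wild type. Filled points had an adjusted p under 0.05: 5, 0 and 4 of the 9 genes.

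Mtor encodes the kinase itself and lies on the plus strand of chromosome 4 (148448611 to 148557683 for its full transcript, GRCm38). The GENCODE M21 annotation gives it 4 transcripts. Mtor-202 is the full coding transcript of 8564 bases in 58 exons. Mtor-201 is a coding transcript of 1003 bases that ends in the intron after exon 5, and Mtor-203 (2229 bases) and Mtor-204 (598 bases) are retained-intron transcripts. The places where the short transcripts leave the full one are shown because the values below turn on which transcript received the counts. In each sequence the 60 lower-case bases are shared and the capitals are the bases that follow them, which end in Mtor-201 with its stop codon TAG.
Mtor-201, chr4:148454693-148454818: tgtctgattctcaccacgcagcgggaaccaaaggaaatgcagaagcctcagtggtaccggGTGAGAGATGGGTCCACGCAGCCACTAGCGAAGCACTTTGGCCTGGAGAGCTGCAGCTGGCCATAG
Mtor-202, chr4:148454693-148454752 spliced to chr4:148455985-148456050: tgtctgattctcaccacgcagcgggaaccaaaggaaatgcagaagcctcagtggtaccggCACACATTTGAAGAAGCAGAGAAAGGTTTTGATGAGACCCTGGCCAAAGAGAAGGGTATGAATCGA
Mtor-204, chr4:148547627-148547788: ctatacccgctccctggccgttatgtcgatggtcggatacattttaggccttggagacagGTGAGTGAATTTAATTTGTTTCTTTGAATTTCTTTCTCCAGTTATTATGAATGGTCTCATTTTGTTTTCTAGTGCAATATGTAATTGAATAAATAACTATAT
Mtor-202, chr4:148547627-148547686 spliced to chr4:148549368-148549440 and chr4:148549791-148549819: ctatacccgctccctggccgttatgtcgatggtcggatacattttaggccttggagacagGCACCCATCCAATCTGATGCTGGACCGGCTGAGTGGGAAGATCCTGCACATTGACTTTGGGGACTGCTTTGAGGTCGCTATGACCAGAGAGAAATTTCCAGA
In both short transcripts the capitals begin with GTGAG, the first bases of the intron that Mtor-202 splices out.

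The count level of Mtor was higher, not lower, where mTOR was targeted. It was 39.5, 31.8, 34.7 and 37.5 CPM in double-knockout replicates 1 to 4, 18.2, 21.1 and 22.6 CPM in the Raptor knockout, and 15.2, 16.8, 22.9 and 28.2 CPM in wild type. All 4 double-knockout libraries lay above the other 7, and the Raptor-knockout values lay within the wild-type range. Against wild type the log2 fold change was 0.78 (SE 0.19, adjusted p = 0.00534, edgeR), and against the Raptor knockout it was 0.80 (SE 0.20, adjusted p = 0.162, edgeR). The Raptor knockout differed from wild type by -0.02 (SE 0.21, adjusted p = 0.962, edgeR). The call against wild type held in 23 of 24 alternative analyses. It was lost when the libraries with Xist were left out, which leaves 1 double-knockout library (0.87). The 24 include analyses of TPM, where the log2 fold change reached 3.36 and also carries the change of transcript length described below. The difference from the Raptor knockout passed in only 7 of 24 alternatives. They included no filter on low counts (adjusted p = 0.0313, edgeR) and the DESeq2 Wald test (adjusted p = 0.0429). It also passed without wild-type replicate 4 (adjusted p = 0.0393, edgeR).

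On the TPM scale (which divides counts by transcript length before scaling) the separation of Mtor was far wider. The deposited TPM was 38.68, 26.81, 31.88 and 34.48 in the double knockout, 3.12, 2.83 and 2.94 in the Raptor knockout, and 2.87, 1.97, 3.26 and 4.98 in wild type. The double knockout thus averaged 33.0 ± 4.97 TPM (SD, n = 4), the Raptor knockout 2.96 ± 0.146 (SD, n = 3) and wild type 3.27 ± 1.26 (SD, n = 4). In limma on log2 of TPM per CPM, Mtor stood higher in the double knockout by 2.34 than in wild type (SE 0.16, adjusted p = 0.00109) and by 2.63 than in the Raptor knockout (SE 0.17, adjusted p = 0.000760). That test covered 11090 genes, of which 0.0271% passed in the first comparison (0.00902% higher and 0.018% lower, 3 genes in all) and 0.00902% in the second (Mtor alone), and Mtor had the highest rise in both. The Raptor knockout differed from wild type by -0.29 (SE 0.17, adjusted p = 0.177, limma), and 0 genes passed in that comparison.

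Since TPM is a count divided by an effective length, the 2 tables together give the length that the authors' RSEM run had used for each gene. An effective length here was the transcript length less about 74.5 bases, a scale set from 259 genes with a single annotated transcript, of which 256 came within 5% of their annotated value in every library. For Mtor this implied length was 1032, 1075, 1076 and 976 bases in the double knockout, 5239, 7017 and 7016 bases in the Raptor knockout, and 4560, 7230, 6407 and 4438 bases in wild type. The full transcript Mtor-202 would give 8490 bases, Mtor-203 2155, Mtor-201 929 and Mtor-204 524. The 4 double-knockout libraries thus lay between Mtor-201 and Mtor-203, and the other 7 lay between Mtor-203 and Mtor-202, with no overlap.

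**Figure D3:**
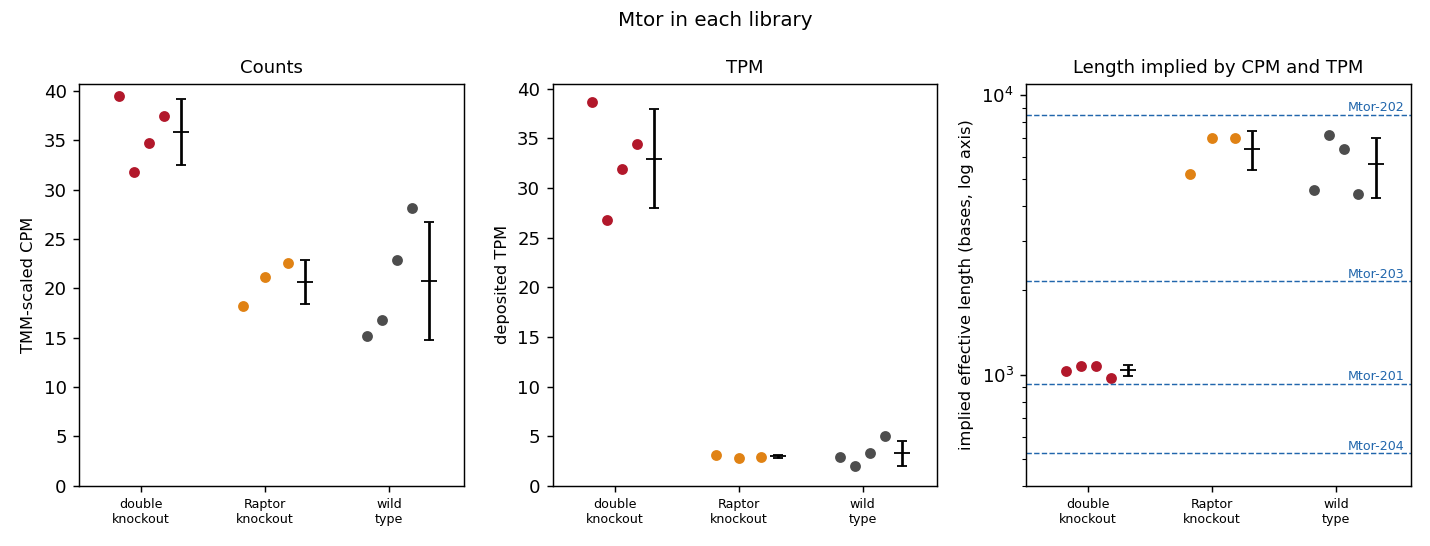
Mtor in each library as TMM-scaled CPM, as deposited TPM and as the effective length in bases implied by both (y axes; the third is a log axis), with the mean and SD of the double knockout (n = 4), the Raptor knockout (n = 3) and wild type (n = 4). Dashed lines mark the effective lengths of the 4 annotated transcripts, and the double-knockout libraries sit at 976 to 1076 bases, below the 4438 to 7230 bases of the other 7.

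How much of the count would be left on the full transcript depends on which short transcript took the rest. If Mtor-201 and Mtor-202 shared all counts, the short transcript held 88.2 ± 4.67% of them in the double knockout, 4.26 ± 2.91% in the Raptor knockout and 6.98 ± 4.59% in wild type (SD). Mtor-202 would then have been at 4.17 ± 1.46 CPM in the double knockout, 19.8 ± 2.68 in the Raptor knockout and 19.2 ± 5.18 in wild type, and its double-knockout values (2.05 to 5.33 CPM) would lie below all others. If the short transcript was Mtor-204, it held 47.2 ± 2.50%, 2.28% and 3.74% in the same order, and Mtor-202 would have been at 18.9 ± 1.40, 20.2 ± 2.48 and 19.9 ± 5.52 CPM, which overlap. Mtor-203 is too long to give the double-knockout lengths with Mtor-202 alone. Gene totals do not show which of these holds, or whether a mixture of more transcripts does, for which the Mtor-202 values would differ. Counts per transcript were not analysed here, and RSEM's length model was applied to reads that come from transcript ends.

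Rptor encodes the scaffold that defines mTOR complex 1 and was the gene targeted in both knockouts (chromosome 11, 119602905 to 119899576, GRCm38). It was at 5.37, 5.12, 4.77 and 4.07 CPM in the double knockout, 3.85, 4.87 and 4.99 CPM in the Raptor knockout, and 10.6, 9.65, 10.5 and 8.57 CPM in wild type. All 7 knockout libraries lay below all wild-type libraries, while both knockout genotypes overlapped. In the double knockout Rptor fell by 1.02 on the log2 scale (SE 0.21, adjusted p = 0.00156, edgeR) and in the Raptor knockout by 1.11 (SE 0.23, adjusted p = 0.00282, edgeR). The knockouts differed from each other by 0.08 (SE 0.25, adjusted p = 0.955, edgeR). Among the 7 libraries without Xist the difference of the double knockout from wild type was -1.25 and did not pass (adjusted p = 0.125, edgeR). These levels rest on 14 to 19 counts per knockout library and 27 to 64 per wild-type library.

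Rptor was less clearly separated in TPM. It was at 1.34, 1.04, 1.21 and 0.92 TPM in the double knockout, 0.69, 1.01 and 0.89 TPM in the Raptor knockout, and 1.78, 1.79, 1.81 and 1.19 TPM in wild type. Wild-type replicate 4 thus lay within the double-knockout range. With limma on log2(TPM + 1), Rptor differed by -0.31 in the double knockout against wild type (adjusted p = 0.165). In the Raptor knockout against wild type it differed by -0.50 (adjusted p = 0.0632, limma). This scale understates changes of low genes, but neither difference passed with a pseudocount of 0.1 either. The implied length of Rptor was 3894 to 4463 bases in the double knockout, 4537 to 5117 in the Raptor knockout and 4571 to 5646 in wild type. The log2 TPM per CPM of Rptor differed by 0.26 between double knockout and wild type (adjusted p = 0.133, limma), which did not pass.

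The other genes of mTOR complex 1 did not pass in any comparison. Mlst8, whose product GβL binds the kinase domain in both complexes, was at 10.2 to 14.8 CPM in the double knockout, 9.48 to 11.03 in the Raptor knockout and 5.36 to 17.8 in wild type. Akt1s1, which encodes the Raptor-bound inhibitor PRAS40, was at 2.03 to 5.39, 2.17 to 5.38 and 3.13 to 6.44 CPM in the same order. Wild type spanned or overlapped the knockout values of both genes, and their log2 fold changes lay between -0.24 and 0.28.

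Deptor encodes an mTOR-binding inhibitor found in both complexes, and had more counts than any other gene of the set. It was at 195, 211, 165 and 188 CPM in the double knockout, 134, 129 and 141 CPM in the Raptor knockout, and 134, 153, 229 and 228 CPM in wild type. The double knockout and the Raptor knockout did not overlap, as held for 12.2% of all genes in that comparison (5.18% higher and 7.03% lower), but the difference of 0.50 did not pass (SE 0.18, adjusted p = 0.357, edgeR). Against wild type, Deptor differed by 0.03 in the double knockout (SE 0.16, adjusted p = 0.923, edgeR) and by -0.47 in the Raptor knockout (SE 0.18, adjusted p = 0.0789, edgeR). Wild-type replicates 3 and 4 were above both double-knockout and Raptor-knockout values, and replicate 1 was at the level of the Raptor knockout.

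Of the genes of mTOR complex 2, Rictor and Mapkap1 were lower in both knockouts. Rictor, the complex's defining scaffold, was at 12.01, 6.46, 12.7 and 12.8 CPM in the double knockout, 6.67, 13.5 and 6.16 CPM in the Raptor knockout, and 23.7, 22.2, 25.5 and 16.2 CPM in wild type. In the double knockout Rictor fell by 0.998 on the log2 scale (SE 0.26, adjusted p = 0.00903, edgeR) and by 1.31 in the Raptor knockout (SE 0.29, adjusted p = 0.00472, edgeR). The knockouts overlapped and differed by 0.32 (SE 0.30, adjusted p = 0.801, edgeR). In limma on log2(TPM + 1) the differences were -0.60 (adjusted p = 0.107) and -0.87 (adjusted p = 0.0531), which did not pass. Rictor was not a target of either deletion.

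Mapkap1, which encodes the mSIN1 subunit that recruits substrates, was at 24.0, 31.0, 32.1 and 29.1 CPM in the double knockout, 36.9, 31.9 and 29.6 CPM in the Raptor knockout, and 45.8, 45.1, 44.1 and 52.3 CPM in wild type. It fell by 0.69 in the double knockout (SE 0.14, adjusted p = 0.00202, edgeR) and by 0.51 in the Raptor knockout (SE 0.16, adjusted p = 0.0310, edgeR), and the second call held in 16 of 24 alternatives. The analyses that lost it included those without Raptor-knockout replicate 2 or 3, without wild-type replicate 1 or 2, and with library totals (-0.31, adjusted p = 0.158, edgeR). The first call held in 23 of 24, and with library totals it was -0.45 (adjusted p = 0.0219, edgeR). The 4 wild-type libraries were close together and above all 7 others, also in TPM (56.11 to 63.95, against 37.29 to 45.42 in the double knockout and 39.55 to 45.56 in the Raptor knockout). Prr5, which encodes the Rictor-binding subunit Protor-1, had 2 to 8 counts per library and was at 0.632 to 1.16, 0.812 to 2.35 and 0.493 to 1.43 CPM in the same group order. Prr5 was not tested.

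Of the S6 kinase genes, Rps6kb1 was lower in both knockouts and Rps6kb2 did not pass, and the difference between the genes was not tested. Rps6kb1 encodes S6K1, the mTOR complex 1 substrate that phosphorylates ribosomal protein S6. It was at 28.1, 17.5, 37.9 and 48.2 CPM in the double knockout, 26.2, 36.3 and 14.7 CPM in the Raptor knockout, and 57.3, 67.6, 57.4 and 51.4 CPM in wild type. It fell by 0.82 in the double knockout (SE 0.29, adjusted p = 0.0486, edgeR) and by 1.18 in the Raptor knockout (SE 0.32, adjusted p = 0.0214, edgeR). These calls held in 9 and 17 of 24 alternatives. The analyses that lost the first included those without any 1 of double-knockout replicates 1 to 3, Raptor-knockout replicate 1 or the 4 wild-type libraries. Those that lost the second included the ones without Raptor-knockout replicate 1 or 3 or wild-type replicate 1 or 2. Without Raptor-knockout replicate 3 its log2 fold change was -0.90 (adjusted p = 0.0757, edgeR). The log2 fold change in the double knockout was -1.36 with sequencing run as a covariate (adjusted p = 0.00537, edgeR), -0.66 with an Xist covariate (adjusted p = 0.1798, edgeR) and -0.30 among the libraries without Xist (adjusted p = 0.771, edgeR). Rps6kb2, which encodes the related S6K2, was at 12.3 to 16.7 CPM in the double knockout, 10.3 to 14.1 in the Raptor knockout and 13.9 to 24.3 in wild type, and did not pass in any comparison. Its log2 fold change was -0.24 in the double knockout (SE 0.20, adjusted p = 0.417, edgeR) and -0.56 in the Raptor knockout (SE 0.23, adjusted p = 0.0950, edgeR) against wild type.

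Within each group, Rictor and Rps6kb1 were also lowest in the libraries with the lowest mt-Rnr2. How many of all genes share this order was not examined. mt-Rnr2 was at 8087, 4967, 17927 and 15595 CPM in the double knockout, 4315, 22423 and 3116 CPM in the Raptor knockout, and 36524, 35809, 24916 and 4834 CPM in wild type. Double-knockout replicate 2, Raptor-knockout replicates 1 and 3 and wild-type replicate 4, the 4 libraries with the lowest mt-Rnr2 (3116 to 4967 CPM), had the lowest Rictor and Rps6kb1 of their groups. They also had the longest implied Rps6kb1 transcript: 5457 bases, 4623 and 5379 bases, and 5455 bases, against 2233 to 3652 bases in the other 7. An annotated coding transcript of 5531 bases in 15 exons would give 5457 bases. A fit with log2 mt-Rnr2 as a covariate was chosen after seeing the data. In it Rictor was lower than wild type by 0.80 in the double knockout (adjusted p = 0.0029, edgeR) and by 0.96 in the Raptor knockout (adjusted p = 0.00396, edgeR). Rps6kb1 was lower by 0.68 (adjusted p = 0.029, edgeR) and by 0.88 (adjusted p = 0.0268, edgeR). Wild-type replicates 1 to 3 had more mt-Rnr2 (24916 CPM or more) than any knockout library (22423 CPM or less). The fit therefore cannot separate mt-Rnr2 from genotype.

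**Figure D4:**
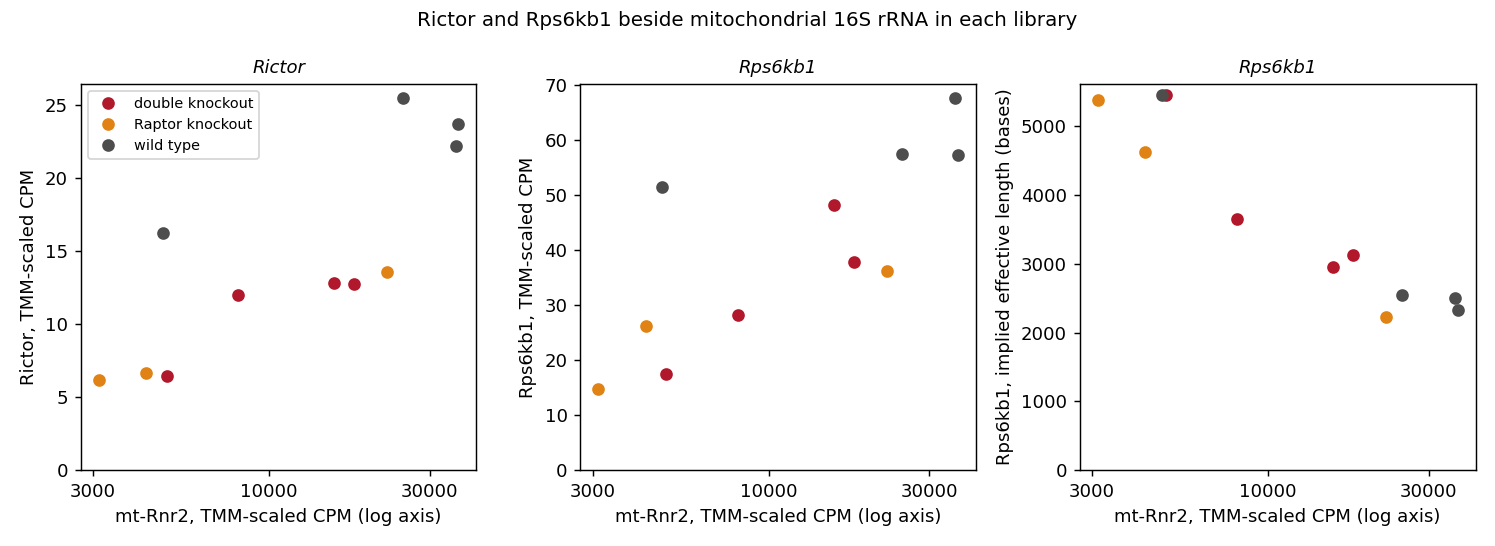
Rictor CPM, Rps6kb1 CPM and the implied effective length of Rps6kb1 in bases (y axes) against mt-Rnr2 CPM (x axis, log scale), 1 point per library, coloured by double knockout, Raptor knockout and wild type. Within each genotype the libraries with mt-Rnr2 at 3116 to 4967 CPM have the lowest Rictor and Rps6kb1 and the longest implied Rps6kb1 transcript.

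Apart from Mtor, no gene of the set passed the test of TPM per CPM in any comparison. The implied length of Deptor matched an annotated transcript of 8547 bases within 1% in all 11 libraries, and that of Mlst8 matched a transcript of 3127 bases in all 11. Akt1s1 matched a transcript of 1592 bases and Prr5 matched a transcript of 1719 bases in 10 of 11 libraries each. Mapkap1 gave 641 to 728 bases and Rps6kb2 603 to 658 bases, the second close to the 604 bases that a retained-intron transcript of 678 bases would give. Rictor gave 5326 to 7402 bases. TPM levels of Mapkap1 and Rps6kb2 relative to the other genes therefore rest on short transcripts in every group.

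The wider pathway was read from 51 further genes, of which 47 were tested. In the double knockout 6 were higher and 10 lower than in wild type, in the Raptor knockout 3 were higher and 9 lower, and between the knockouts none passed. The share of all genes passing was the 26.7%, 18.2% and 0.0286% given above.

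Upstream of mTOR complex 1, the regulators that carry nutrient and growth factor signals mostly did not pass: of 23 tested, 1 was higher and 3 were lower in the double knockout, and 1 was higher and 2 were lower in the Raptor knockout. Their median log2 fold changes were -0.33 and -0.19, against 0.02 and 0.00 for all genes. Tsc1, a subunit of the complex that restrains mTOR complex 1, was at 20.7 ± 1.56 CPM in the double knockout, 21.0 ± 1.97 in the Raptor knockout and 38.8 ± 5.91 in wild type (SD). It fell by 0.91 (adjusted p = 0.000346, edgeR) and by 0.89 (adjusted p = 0.00151, edgeR). Rragd, a Rag GTPase, fell by 0.93 and 0.65, and Mios, a GATOR2 subunit, fell by 0.72 in the double knockout. The Rragd calls held in 23 and 12 of 24 alternatives, and the Mios call in 11 of 24. Lamtor3, a Ragulator subunit, rose by 0.60 (adjusted p = 0.00276, edgeR) and by 0.66 (adjusted p = 0.00332, edgeR).

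Among 15 effectors, 3 were higher and 5 lower in the double knockout, and 1 was higher and 5 were lower in the Raptor knockout, with medians of -0.20 and -0.31. Rps6, the ribosomal protein that S6K1 phosphorylates, rose by 1.09 (adjusted p = 6.87e-06, edgeR) and by 0.73 (adjusted p = 0.000711, edgeR), at 777 ± 67.3 CPM in the double knockout, 606 ± 31.9 in the Raptor knockout and 366 ± 38.7 in wild type (SD). Larp1, a repressor of terminal oligopyrimidine mRNAs, fell by 0.74 and 0.64. Tfeb, a transcription factor of lysosomal genes held in the cytoplasm by mTOR complex 1, was at 10.7 ± 1.10, 9.23 ± 3.07 and 23.0 ± 0.808 CPM in the same order and fell by 1.10 and 1.31. Eef2k, the kinase of elongation factor 2, fell by 0.92 in the double knockout and by 0.70 in the Raptor knockout. Eif4ebp2, a 4E-BP gene, fell by 1.60 in the double knockout and by 1.44 in the Raptor knockout, against wild-type values that spread from 174 to 462 CPM.

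On the side of mTOR complex 2, 6 genes were tested, and 1 was higher and 2 were lower than wild type in each knockout. Akt1 was at 48.5 ± 10.6 CPM in the double knockout, 42.7 ± 9.61 in the Raptor knockout and 24.4 ± 6.02 in wild type (SD), and rose by 0.99 (adjusted p = 0.00182, edgeR) and by 0.80 (adjusted p = 0.0169, edgeR). Sgk1, a kinase activated by the complex, was at 41.1 ± 3.05, 22.3 ± 8.18 and 67.3 ± 6.39 CPM in the same order, so the double knockout lay between the other groups. It fell by 0.71 in the double knockout (adjusted p = 0.00915, edgeR) and by 1.59 in the Raptor knockout (adjusted p = 0.000105, edgeR), and the knockouts differed by 0.88 without passing (SE 0.21, adjusted p = 0.142, edgeR). Prkca, a protein kinase C gene, fell by 0.49 (adjusted p = 0.0160, edgeR) and 0.46 (adjusted p = 0.0454, edgeR). These Prkca calls held in 16 and 5 of 24 alternatives. Of 3 genes whose products fold the mTOR kinase, Telo2 rose by 0.90 in the double knockout (adjusted p = 0.0149, edgeR), and none passed in the Raptor knockout.

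The genes whose level across the 11 libraries was most like that of each targeted gene were named by Pearson's r of log2 CPM over the genes with a mean log2 CPM of at least 3, as a description. For Rptor they were Zfp652 (r = 0.969), Gpd2, the mitochondrial glycerol phosphate dehydrogenase (0.967), and Sorbs2 (0.966). Each was low in both knockouts: Gpd2, for example, averaged 127 CPM in the double knockout, 116 in the Raptor knockout and 259 in wild type. For Mtor they were Slc38a2, a neutral amino acid transporter (0.911), Gramd1b (0.906) and Nagpa (0.892). Slc38a2 was at 206 ± 36.1 CPM in the double knockout, 111 ± 9.86 in the Raptor knockout and 98.4 ± 21.1 in wild type (SD). The libraries differ in genotype, depth and sequencing run, and these differences are common to all genes compared.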

How the data were processed

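Per the submitters' processing notes, the genome build was GRCm38 and the tools named were STAR 2.7.0, fastp 0.20.0 and RSEM 1.3.3. The deposited gene tables hold RSEM expected counts that the authors did not normalize, and a second deposited table holds the authors' TPM per library. No source used here gave the annotation release or the strand setting. Double-knockout replicates 3 and 4 came from a smaller sequencing run than the other 9 libraries, and 6 columns that matched no sample label were not used. Library totals of 2791339 to 6328533 counts set the precision, and counting error comes on top of the spread between muscles. Replicates are numbered in the order of the sample records. Nothing in the labels says whether each library is a separate mouse, so p-values measure only the spread between these libraries, which may be technical.

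Before testing, expected counts were rounded (2.25% of values were not whole). The test was edgeR 4.0.16 (R 4.3.3), with the filterByExpr filter by group, TMM scaling, and 1 robust quasi-likelihood model of all groups over 11 libraries with 8 residual degrees of freedom. Tests were two-sided, and p-values were adjusted by Benjamini-Hochberg over all 10505 genes of a contrast, with calls at an adjusted p under 0.05. The SE of a log2 fold change was taken as the fold change over the root of the F statistic. TPM divided by unscaled CPM was tested on the log2 scale with limma 3.58.1 over 11090 genes above 0 in all libraries and with a mean TPM of at least 0.5. Symbols, transcripts and sequences were taken from GENCODE M21 (260 of 55487 identifiers had no entry). The code was tested on simulated counts.

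The genes and lists were chosen with earlier results of these data known. All 10 genes are named in every contrast, and up to 4 of each pathway list by smallest adjusted p among those called. Alternatives were DESeq2 1.42.0 size factors or library totals, no filter on low counts, 2 groups alone, sequencing run as a covariate, the smaller run left out, the DESeq2 Wald test, limma on log2 TPM with a pseudocount of 1 or 0.1, log2 CPM of Xist as a covariate, libraries without Xist alone, and each library left out. A covariate for mt-Rnr2 was added after seeing the data.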

Additional observations from a re-analysis of the deposited data

Results flagged for a closer look

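Within groups of 4 libraries, 60 sets of values of these genes were examined for a library far from the others, and 6 had one by Dixon's criterion. Chance flags about 1 set in 20. Wild-type replicate 4 had 1.19 TPM of Rptor, 7.39 TPM of Rps6kb1 and an implied Rps6kb1 length of 5455 bases, apart from the other 3 wild-type libraries in each case. It also had the lowest mt-Rnr2 of its group. Double-knockout replicate 2 had 6.46 CPM of Rictor, below the 12.01 to 12.8 CPM of the other 3, and likewise the lowest mt-Rnr2 of its group. Double-knockout replicate 3 had an implied Akt1s1 length of 1636 bases and 27.3 TPM of Rps6kb2. The part of mt-Rnr2 in the first 4 values was not tested.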

How the results depend on the processing

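No called value changed sign under any alternative. Values that were not called did: in the double knockout against wild type Akt1s1 ran from -1.24 to 0.28, Deptor from -0.08 to 0.26 and Mlst8 from -0.07 to 0.55, and in the Raptor knockout against wild type Mlst8 ran from -0.39 to 0.27. Rptor in the double knockout against wild type (-1.02) no longer passed in limma on TPM, at -0.31 with a pseudocount of 1, -0.50 with 0.1 and -0.31 with no filter, or among the libraries without Xist (-1.25). In the Raptor knockout against wild type (-1.11) it was -0.50, -0.85 and -0.50 in the same 3 TPM analyses, none of which passed. The Mtor rise against wild type did not pass among the libraries without Xist (0.87). Mtor in the double knockout against the Raptor knockout (0.80) passed in 7 of 24 alternatives. It passed with no filter on low counts (0.81), with only those 2 groups (0.81) and with the DESeq2 Wald test (0.81). It also passed in limma on TPM (3.09, 3.42 and 3.09) and without wild-type replicate 4. Mtor ran from 0.71 to 0.86 over the analyses that left out 1 library. Its log2 TPM per CPM against the Raptor knockout was 2.58 without the smaller run and did not pass (adjusted p = 0.0808, limma). Of the 9 genes tested, 5 passed in the double knockout against wild type, against 2 in each TPM analysis, 0 among the libraries without Xist and 4 to 5 with 1 library left out. Between the knockouts 0 passed, against 1 with no filter, 2 with only those 2 groups, 1 with DESeq2, 1 in each TPM analysis and 0 to 1 with 1 library left out. In the Raptor knockout against wild type 4 passed, against 1 in each TPM analysis and 2 to 4 with 1 library left out. The cause of these changes was not tested. The Xist subset leaves a small number of libraries (in the double knockout a lone library, whose spread is taken from the other groups). With the mt-Rnr2 covariate, Deptor (-0.63) and Rps6kb2 (-0.73) also passed in the Raptor knockout against wild type. Over all genes, the double knockout against the Raptor knockout gave 1 higher and 2 lower, but 44 and 61 with no filter, 65 and 92 with only those 2 groups, and 54 and 48 with DESeq2. No paired analysis was possible because the replicate numbers follow the order of the sample records and pair no samples. Depth limits what can be read from Prr5 (2 to 8 counts per library) and Akt1s1 (7 to 21 counts per library).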
